A study of Mus musculus with 3 samples.

Results

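Peroxisomal fatty acid oxidation was followed through 8 genes in mouse liver: the acyl-CoA transporters Abcd2 and Abcd3, the oxidase Acox2, the bifunctional enzymes Ehhadh and Hsd17b4, the thiolases Acaa1a and Acaa1b, and the carnitine transferase Crot. They were picked by gene symbol, not by their values, from a deposited table of 35275 genes, and each symbol matched 1 row. Liver polyA RNA came from male C57BL/6J mice aged 10 weeks when their diets started, with 1 library per group. The control library was from untreated mice on normal chow, for a time the labels do not give. The NASH (nonalcoholic steatohepatitis) library came from mice without hormone whose western diet was paired with liquid fructose; its label names 24 weeks. The TH-treated NASH library was from mice that had eaten that diet for 16 weeks and then drank T3 and T4, given as 35 and 7 ng/g, in 15% fructose water for 8 more weeks. No group carried a transgene or deletion, and whether a library pools several animals is not stated.

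Peroxisomes shorten fatty acids that mitochondria handle poorly: very long chains, branched chains, dicarboxylic acids and the side chains of bile acid precursors. ABC transporters bring the acyl-CoAs in, an oxidase that makes hydrogen peroxide starts each round, a bifunctional enzyme hydrates and dehydrogenates the product, and a thiolase cuts off the shortened chain. Carnitine transferases then ready the remaining acyl groups for mitochondria. In rodent liver the nuclear receptor PPARA induces much of this set, and thyroid hormone is a known stimulus of hepatic fatty acid oxidation.

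Between the libraries the pathway did not move as a block. In NASH the thiolase Acaa1b stood 1.71-fold above control, while the counting interval of the Abcd3 ratio held 1. In TH-treated NASH the transporters stood above NASH, Abcd2 by 2.69-fold and Abcd3 by 1.68-fold. The oxidase Acox2 stood 1.99-fold below NASH, and Hsd17b4 and Acaa1b each 1.52-fold below. The L-bifunctional enzyme Ehhadh was above the library before it in both comparisons, as was Abcd2, and reached 2.02-fold its control level. Crot and Acaa1a stayed within 1.26-fold in every comparison. With 1 library per group these differences have no replicate check, and no test between groups can be made. Ranges in brackets are 95% intervals for counting error alone. All 8 members had at least 1 FPKM (fragments per kilobase of gene, scaled to library depth) in every library.

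The libraries held 38303410 to 54576236 fragments on genes, so members rested on 568 to 133570 fragments each. Of the liver label's markers, the 14 hepatocyte markers found of 15 listed were above 0 in every library and summed to 62199, 42493 and 43921 FPKM across control, NASH and TH-treated NASH, and kidney markers to 0.0453 FPKM at most. In NASH against control 5 of the 14 were lower by 1.5-fold or more, where 2.57% of all genes compared were. In TH-treated NASH against NASH 3 of the 14 were higher and 2 lower, where 8.49% and 9.03% of all genes compared were. Exocrine pancreas markers summed to 17.9, 10.9 and 57.9 FPKM across control, NASH and TH-treated NASH. Of the 2 with at least 1 FPKM in any library, 1 was lower in NASH than in control and 2 were higher in TH-treated NASH than in NASH. The macrophage markers summed to 100.4, 273.5 and 494.9 FPKM, neutrophil markers to 5.67, 11.2 and 96.2 FPKM, and erythroid markers to 316, 391 and 1759 FPKM, in the same order. Counting those with at least 1 FPKM in any library, 9 of 9, 2 of 6 and 0 of 6 were higher in NASH than in control. In TH-treated NASH against NASH 4 of 9, 5 of 6 and 5 of 6 were higher, while 1 macrophage and 1 erythroid marker were lower. Stellate cell and fibroblast markers summed to 75.3, 151 and 103 FPKM, with 7 of 9 higher in NASH than in control and 4 of 9 lower in TH-treated NASH than in NASH. Cholangiocyte markers summed to 30.4, 100.7 and 46.7 FPKM. Of the 4 with at least 1 FPKM in any library, 2 were higher and 3 lower in those same comparisons. Among all genes compared, 10.5% were higher in NASH than in control and 9.03% lower in TH-treated NASH than in NASH. The sums of the stellate cell and fibroblast list and of the cholangiocyte list were highest in NASH, the library where Acaa1b, Hsd17b4 and Acox2 were also highest. Macrophage, neutrophil and erythroid sums rose from control to NASH to TH-treated NASH, as did Abcd2 and Ehhadh. The TH-treated NASH library also stood apart in some sex-biased liver genes. Its male-biased Cyp4a12a was at 1.26 FPKM against 104 in NASH, and its female-biased Cyp3a44 at 97.4 FPKM with no fragment in the other libraries. The female-biased Cyp2b9 did not set it apart from NASH, at 0.0195, 1.52 and 1.45 FPKM across control, NASH and TH-treated NASH. Y-linked Ddx3y at 17.3 FPKM and Xist at 0.00735 FPKM in TH-treated NASH were near those of the other libraries. The part of cell makeup or of these sex-biased differences in the results below was not tested, and in bulk RNA fewer cells of a type cannot be told from less RNA per cell. As a check of the hormone label, the thyroid hormone target Dio1 was at 90.3, 129 and 429.7 FPKM in control, NASH and TH-treated NASH. Another gene planned for this check is not reported here. In a list of 14 thyroid hormone response genes, 5 were higher and 1 lower by 1.5-fold or more in TH-treated NASH than in NASH. Of all genes compared, 8.49% were higher and 9.03% lower, and the list's median log2 ratio was 0.29.

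**Figure D1:**
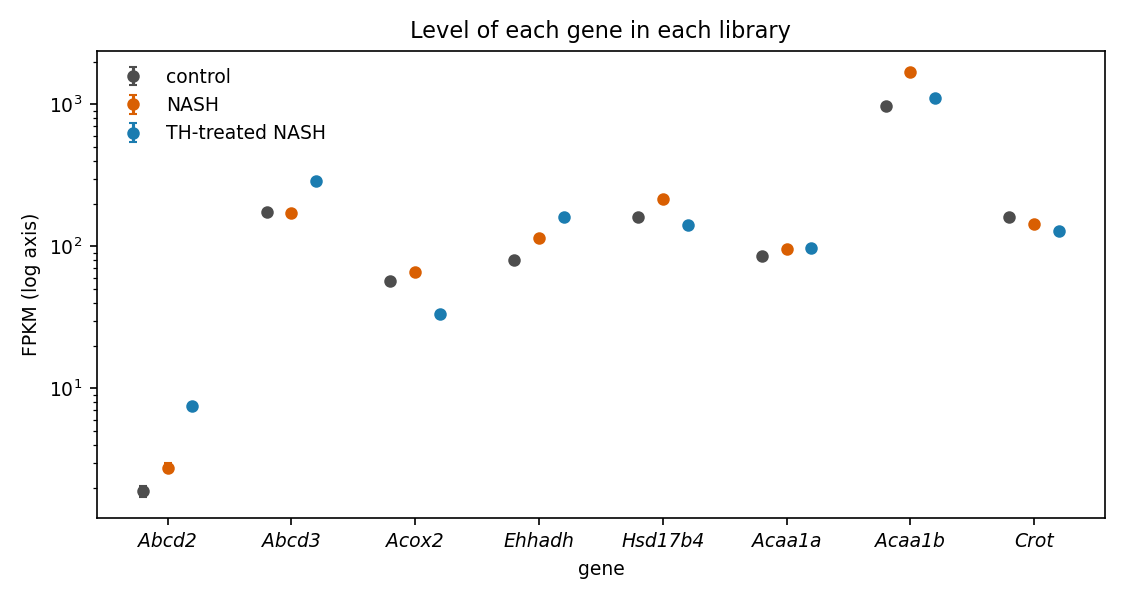
FPKM of each gene (log axis) in the control, NASH and TH-treated NASH libraries, 1 point per library, with 95% Poisson counting intervals that are mostly smaller than the point. Acaa1b is highest in every library, up to 1682 FPKM, and Abcd2 lowest, down to 1.88 FPKM.

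Entry into the peroxisome comes first. Abcd3, the peroxisomal membrane protein that carries long branched-chain and dicarboxylic acyl-CoAs and bile acid precursors, was at 174, 172 and 289.9 FPKM across control, NASH and TH-treated NASH. Only the last library stood out. The ratio of NASH to control was 0.990 (0.974 to 1.01), an interval that holds 1, and that of TH-treated NASH to NASH was 1.68 (1.66 to 1.71). Abcd2, a close relative that carries very long-chain acyl-CoAs and is best known from fat and brain, was the scarcest member, at 1.88, 2.77 and 7.46 FPKM on 568, 721 and 1580 fragments. Control was lowest and TH-treated NASH highest, and the counting intervals of the libraries did not overlap. TH-treated NASH stood 2.69-fold above NASH (2.46 to 2.94) and 3.96-fold above control (3.60 to 4.37). Abcd3 was 92.5 times as high as Abcd2 in control, 62.1 times in NASH and 38.8 times in TH-treated NASH, so Abcd3 carried nearly all of the summed level of the pair in each library. Of the adipocyte markers Adipoq, Lep, Plin1 and Retn none passed 0.0659 FPKM in any library. The adipocyte list summed to 3.83 FPKM in TH-treated NASH against 47.0 in NASH, where Cfd gave 44.2, and 2 of its 6 genes, Lep and Plin1, were at 0 in TH-treated NASH. Besides Cfd, the list's only other gene of at least 1 FPKM in any library did not pass 1.5-fold between TH-treated NASH and NASH. Which cells the Abcd2 transcript came from was not tested. The coding sequences of Abcd2 and Abcd3 share 70.4% of 1850 aligned bases, and no 50-base window of the Abcd3 coding transcript recurs in that of Abcd2.

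Acox2, at the oxidase step, is an oxidase for the bile acid precursors whose side chain peroxisomes shorten. It was at 57.0, 66.3 and 33.4 FPKM across control, NASH and TH-treated NASH, the last the lowest by far. TH-treated NASH stood 1.99-fold below NASH (1.91 to 2.07) and 1.71-fold below control (1.64 to 1.77). NASH was 1.16-fold above control (1.131 to 1.199), a log2 ratio that moved to 0.0027 when libraries were scaled by median-of-ratios. Acox2 ranked 7 of 8 members by FPKM in every library.

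At the bifunctional step the paired enzymes work on mirror-image intermediates, and their transcripts parted. Ehhadh, the L-bifunctional enzyme, which takes part in oxidation of long-chain dicarboxylic acids, stood at 80.0, 114 and 161 FPKM across control, NASH and TH-treated NASH. Each library was above the one before, by 1.43-fold (1.40 to 1.46) and then 1.41-fold (1.38 to 1.44), and TH-treated NASH was 2.02-fold above control (1.97 to 2.06). Hsd17b4, the D-bifunctional enzyme, which handles very long, branched and bile acid side chains, was at 162, 216 and 142 FPKM. NASH was thus its highest library, 1.34-fold above control (1.32 to 1.36), and TH-treated NASH stood 1.52-fold below NASH (1.49 to 1.55). The ratio of Ehhadh to Hsd17b4 FPKM was 0.496 (0.485 to 0.506) in control and 0.529 (0.519 to 0.539) in NASH, and 1.13 (1.11 to 1.16) in TH-treated NASH, the one library where Ehhadh was the higher of the pair.

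At the thiolase step Acaa1b, a 3-ketoacyl-CoA thiolase, was the most abundant member, at 982, 1682 and 1106 FPKM across control, NASH and TH-treated NASH, ranks 68, 38 and 62 among all genes. Only NASH was far from the others: 1.71-fold above control (1.70 to 1.73) and 1.52-fold above TH-treated NASH (1.51 to 1.53). Acaa1a, which encodes the other thiolase, was at 85.2, 95.9 and 98.1 FPKM, a narrow range. Its ratio was 1.13 for NASH to control (1.10 to 1.15) and 1.02 for TH-treated NASH to NASH (1.00008 to 1.05). The Acaa1b to Acaa1a ratio was 11.5, 17.5 and 11.3 across control, NASH and TH-treated NASH.

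These thiolase values carry a limit, since the genes are near copies. Their longest coding sequences, in GENCODE M21, are both 1272 bases long and identical at 1228 of them (96.5%). Of the 100-base windows in the Acaa1b coding transcript 22.6% also occur in that of Acaa1a, and of the 50-base windows 35.5%, so reads can be shared and how they were assigned is not stated. The 60 coding bases, 259 to 318, in which the pair differs most are shown to let the 2 genes be told apart, with the 11 differing bases in capitals.
Acaa1a: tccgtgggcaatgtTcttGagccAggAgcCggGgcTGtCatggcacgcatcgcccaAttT
Acaa1b: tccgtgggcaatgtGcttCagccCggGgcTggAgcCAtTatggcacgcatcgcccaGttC
The length behind the deposited Acaa1a FPKM, 3668 bases, is that of a retained-intron transcript in GENCODE M21, while the longest coding transcript has 1762 bases. With coding transcript lengths for the pair, the Acaa1b to Acaa1a ratio would be 5.54, 8.43 and 5.42 in the same order of libraries. Ratios of 1 gene between libraries do not depend on its length. Summed as 1 gene, the thiolases stood at 1067, 1778 and 1204 FPKM.

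Exit from the peroxisome needs carnitine esters. Crot transfers medium-chain acyl groups to carnitine, the form in which they leave for mitochondria. It was at 162, 144 and 129 FPKM across control, NASH and TH-treated NASH, lower at each step, and no counting intervals overlapped. The steps were small, 1.13-fold (1.11 to 1.15) and 1.12-fold (1.09 to 1.14), and TH-treated NASH lay 1.26-fold below control (1.23 to 1.28).

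**Figure D2:**
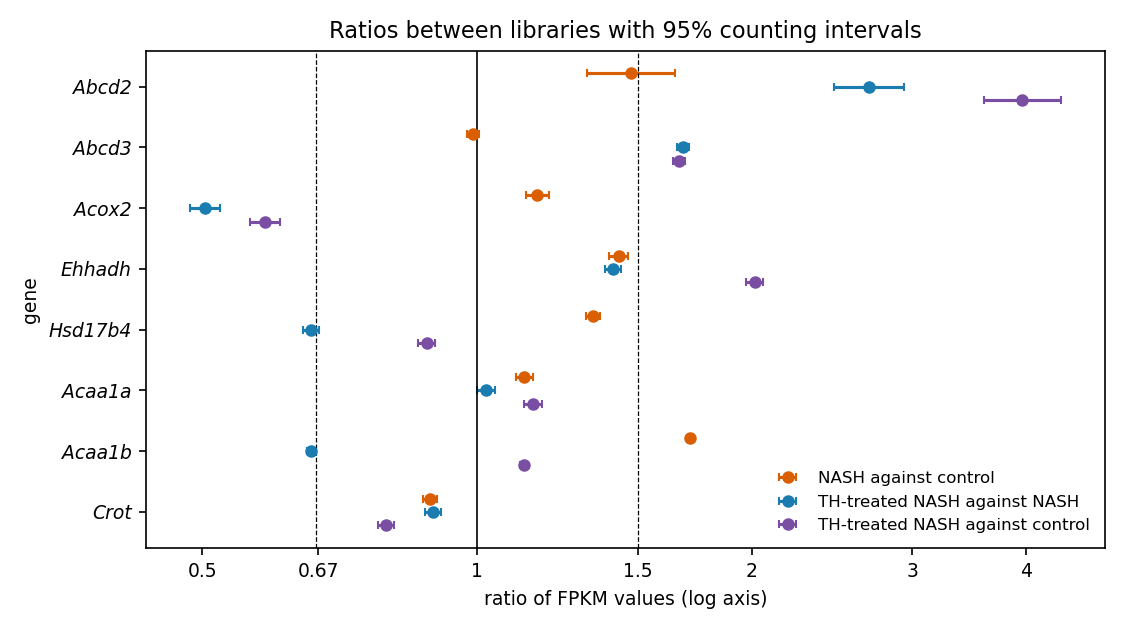
Ratio of FPKM values (log axis) for each gene in NASH against control, TH-treated NASH against NASH, and TH-treated NASH against control, with 95% counting intervals; dashed lines mark 1.5-fold. For TH-treated NASH against NASH the transporters and Ehhadh lie well right of 1 and Acaa1a just right of it at 1.02, and Acox2, Hsd17b4, Acaa1b and Crot lie left of it.

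To set these differences beside all genes, a member was called higher or lower when its log2(FPKM + 1) differed by at least 1.5-fold, a scale that understates low genes such as Abcd2. In NASH against control 1 of 8 members, Acaa1b, was higher and none lower, where 10.5% and 2.57% of the 11499 genes with 1 FPKM or more in a library of the pair were. The median log2 ratio of the members was 0.30, with 6 above 0, and that of all genes 0.12. Between TH-treated NASH and NASH 2 of 8 were higher (Abcd2, Abcd3) and 3 lower (Acox2, Hsd17b4, Acaa1b), where 8.49% of 11734 genes were higher and 9.03% lower. The members' median was −0.06 and that of all genes −0.03, so the median shows no common shift while single members spanned −0.97 to 1.16. Set against control, TH-treated NASH had 3 of 8 higher (Abcd2, Abcd3, Ehhadh) and 1 lower (Acox2), where 15.8% and 6.98% of 11474 genes were, with medians of 0.19 and 0.12. Each library stands in 2 of these comparisons, so they are not independent of one another.

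Several of these counts lie near the threshold. Hsd17b4 at 1.52-fold and Acaa1b at 1.52-fold below NASH on that scale drop under 1.5-fold with median-of-ratios scaling, as does the Acaa1b difference between NASH and control, which moves to a log2 ratio of 0.56. Hsd17b4 also does so when ratios are centred by gene length. Abcd3 above control in TH-treated NASH drops under it with median-of-ratios and TMM scaling, at a log2 ratio of 0.54 at the lowest. Centring on hepatocyte markers ends the calls of Abcd3 above NASH, at 0.43, and of Acox2 below control, at −0.55, and it turns the sign of Abcd3 and Crot in NASH against control, of Acaa1a against NASH and of Hsd17b4 against control in TH-treated NASH. Scaling to an equal sum turns Abcd3 in NASH against control and Acaa1a in TH-treated NASH against NASH. Median-of-ratios and TMM scaling turn Acaa1a in NASH against control and Acaa1b in TH-treated NASH against control, the latter also with gene-length centring. None of these turned ratios was past 1.5-fold as deposited. Median-of-ratios scaling moved the median of all genes in NASH against control from 0.12 to −0.06, and TMM scaling to −0.03; in TH-treated NASH against control it went from 0.12 to −0.04 and −0.05. Of all genes past 1.5-fold in NASH against control, 80.3% were higher as deposited, 59.7% with median-of-ratios, 64.1% with TMM scaling, 66.1% with gene-length centring and 98.6% with hepatocyte centring. For TH-treated NASH against NASH the share was 48.4%, 35.0% after scaling to an equal sum of FPKM and 12.3% with hepatocyte centring. For TH-treated NASH against control it was 69.4%, then 50.2% with median-of-ratios, 48.8% with TMM, 50.9% with gene-length and 87.0% with hepatocyte centring. Acox2 below NASH, Abcd2 above NASH and control, and Ehhadh above control in TH-treated NASH stayed past 1.5-fold in all 10 alternatives tried for single genes. The filter settings among these alternatives cannot change the ratio of a single gene, so only the others could have ended a call.

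**Figure D3:**
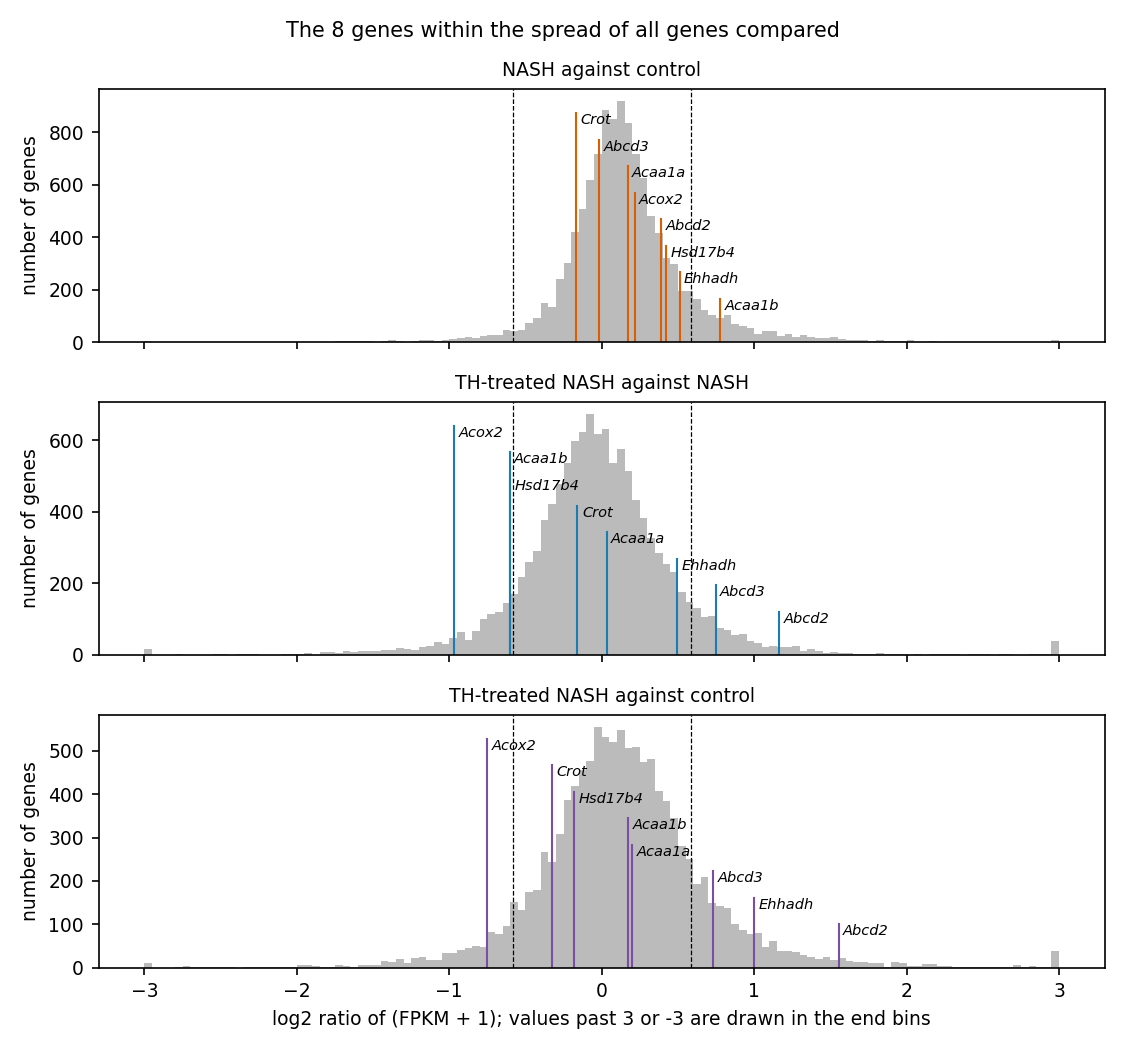
Number of genes by log2 ratio of (FPKM + 1) in each comparison (grey; genes reaching 1 FPKM in a library of the pair), with the 8 genes as coloured lines and 1.5-fold as dashed lines. With TH-treated NASH against NASH the genes run from Acox2 at −0.97 to Abcd2 at 1.16, on both sides of the bulk of genes.

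The summed level of the 8 genes was 1704, 2494 and 1967 FPKM across control, NASH and TH-treated NASH. Acaa1b took 57.6%, 67.4% and 56.2% of it. Without Acaa1b, the remaining 7 genes summed to 721, 812 and 861 FPKM, so their order differs from that of the full sum. The transporters made up 10.3%, 7.02% and 15.1% of the sum in the same order, and the bifunctional enzymes 14.2%, 13.3% and 15.4%.

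**Figure D4:**
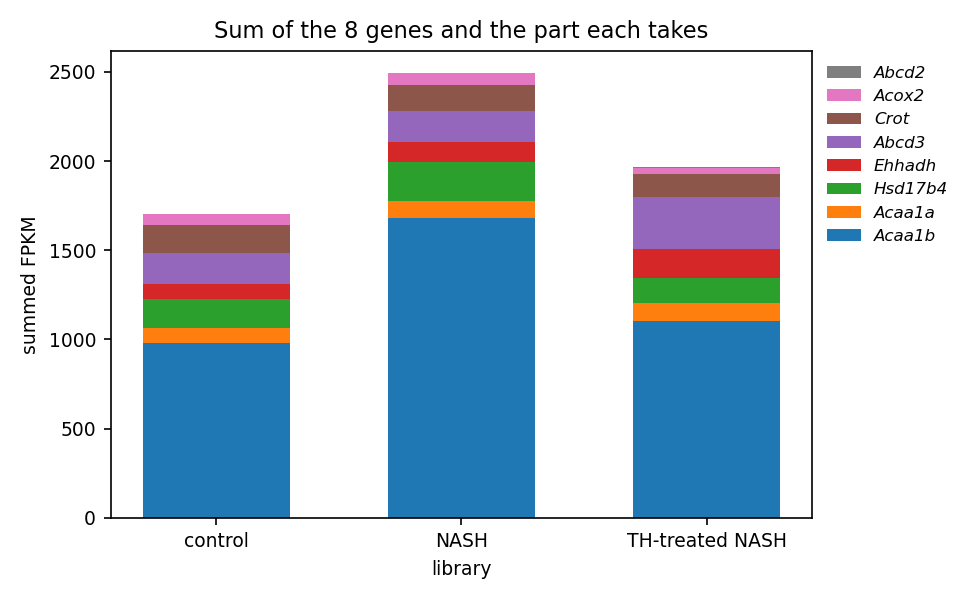
Summed FPKM of the 8 genes in each library, with 1 segment per gene; bars start at 0. The sum is highest in NASH, at 2494 FPKM, mainly through Acaa1b, while the Abcd3 segment is largest in TH-treated NASH.

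Members were also compared by pattern, as the distance between their pairs of log2 ratios, NASH against control and TH-treated NASH against NASH, over these 3 libraries. The closest members were Hsd17b4 and Acaa1b, 0.36 apart on the log2 scale, and the farthest Acox2 and Abcd2, 2.14 apart. Of the pairs at the same step, the bifunctional enzymes Ehhadh and Hsd17b4 were 1.10 apart, the thiolases 0.88 and the transporters 0.58. Among 6667 genes that reached 5 FPKM in any library and have a regular symbol (letters and digits only, leaving out Gm- and Rik-type names), the nearest to Acox2 was Acadm, the mitochondrial medium-chain acyl-CoA dehydrogenase, at 164, 191 and 97.7 FPKM and a distance of 0.012, then Hibadh and Mmp15. Among the genes near Abcd3 were the complex I subunit gene Ndufc1, at 25.1, 24.8 and 42.3 FPKM, and Rpl35. Nearest to Hsd17b4 was Dera, an aldolase of deoxyribose phosphate, at 36.4, 49.1 and 32.0 FPKM, and Tmem143 was also near. Ehhadh lay nearest to the tropomyosin gene Tpm3, Leprotl1 and Gng11, Acaa1b to the scramblase gene Plscr2, S1pr2 and Tjp3, and Abcd2 to the carotene oxygenase gene Bcmo1, Ighg2b and Spp2. With 3 libraries and many genes, close neighbours are common, and nothing is read from them.

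Upstream sequence was looked up in RefSeq promoters (GRCm38.p6), where 6 of the 8 genes matched with 8 start sites. The 250 bases before a start are shown for the 4 matched genes that passed 1.5-fold in a comparison, 5′ to 3′ on the gene's strand. Capitals mark CCAAT boxes and GC boxes (GGGCGG), on either strand, and the windows of Abcd3 and Acox2 hold none. Abcd3 is at chr3:121815303-121815552 and Acox2 at chr14:8259020-8259269. Ehhadh is at chr16:21787835-21788084 and Acaa1b at chr9:119157094-119157343, and all 4 are on the minus strand.
Abcd3: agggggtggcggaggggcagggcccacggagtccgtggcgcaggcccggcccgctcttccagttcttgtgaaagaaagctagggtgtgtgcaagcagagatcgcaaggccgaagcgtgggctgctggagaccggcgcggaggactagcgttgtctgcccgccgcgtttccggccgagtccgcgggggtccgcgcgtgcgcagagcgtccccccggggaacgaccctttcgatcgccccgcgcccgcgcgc
Acox2: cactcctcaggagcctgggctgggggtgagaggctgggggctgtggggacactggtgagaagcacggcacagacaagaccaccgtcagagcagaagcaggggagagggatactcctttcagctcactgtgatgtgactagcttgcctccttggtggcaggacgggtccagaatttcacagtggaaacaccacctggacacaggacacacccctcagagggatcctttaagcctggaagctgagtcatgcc
Ehhadh: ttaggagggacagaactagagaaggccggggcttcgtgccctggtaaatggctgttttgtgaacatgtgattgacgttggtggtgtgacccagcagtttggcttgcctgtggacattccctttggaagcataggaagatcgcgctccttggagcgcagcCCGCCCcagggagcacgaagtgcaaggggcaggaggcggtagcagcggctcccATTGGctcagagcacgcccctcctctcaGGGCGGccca
Acaa1b: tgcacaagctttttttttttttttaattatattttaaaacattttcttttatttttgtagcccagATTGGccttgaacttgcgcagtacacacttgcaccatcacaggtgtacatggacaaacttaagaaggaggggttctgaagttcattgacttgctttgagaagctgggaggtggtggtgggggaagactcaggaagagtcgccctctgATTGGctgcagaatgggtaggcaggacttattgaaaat
The Abcd3 window is 72.0% G and C with 34 CpG pairs, that of Acox2 58.8% with 3, that of Ehhadh 60.4% with 12 and that of Acaa1b 41.6% with 2. The direct repeats of AGGTCA that nuclear receptors bind were searched on both strands, with 1 base between repeats (DR1, the PPARA type) or 4 (DR4, the thyroid hormone receptor type), allowing 2 mismatches in 12 letters. None of the 8 windows held either, and 3.24% and 2.57% of 32851 promoters of that length did. CCAAT stood before 5 of 8 starts (33.8% of all promoters). These belong to 5 of 6 genes, all but Abcd3, and for Acox2 the start is another than the one shown. GGGCGG stood before 3 of 8 starts (32.7%), those of Ehhadh, Acaa1a and Crot. TATAAA stood before none (12.4%). These matches describe the letters of the window only.

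In the deposited table Abcd2 (ENSMUSG00000055782) lies on chromosome 15 from 91145884 to 91191807 and Abcd3 (ENSMUSG00000028127) on chromosome 3 from 121758909 to 121815302. Acox2 (ENSMUSG00000021751) lies on chromosome 14 from 8225511 to 8259353, Ehhadh (ENSMUSG00000022853) on chromosome 16 from 21761287 to 21787844, and Hsd17b4 (ENSMUSG00000024507) on chromosome 18 from 50128201 to 50196269. Acaa1a (ENSMUSG00000036138) and Acaa1b (ENSMUSG00000010651) share chromosome 9, at 119339676 to 119350299 and 119148023 to 119157093, on opposite strands. Crot (ENSMUSG00000003623) lies on chromosome 5 from 8966033 to 8997324. No source used here names their build; 5 of 8 equal those of GENCODE M21 (GRCm38). Acaa1a overlaps Myd88 on the other strand by 1736 bases and lies over its whole span of 10624 bases within Slc22a14, also on the other strand, which was at 0 in every library. Acaa1b overlaps Dlec1 by 224 bases, Hsd17b4 the pseudogene Cd63-ps by 875 and Crot the pseudogene Gm15610 by 195. These overlaps are of whole gene spans, introns included, and overlap of exons was not tested. No strand mode is given, so whether reads there were shared between genes is not known. The RefSeq promoter table held no entry for Abcd2 and Hsd17b4. Myd88 was at 9.44 to 11.4 FPKM where Acaa1a was at 85.2 to 98.1, and Dlec1 at 7.75 to 14.0 FPKM where Acaa1b was at 982 to 1682. The pseudogenes reached 1.47 FPKM at most.

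Other genes of the pathway were taken as lists, some of which share genes, keeping those of at least 1 FPKM in any library. Their counts stand beside the shares of all genes given above, 10.5% higher and 2.57% lower in NASH against control, and 8.49% higher and 9.03% lower in TH-treated NASH against NASH. Of 14 further enzymes of peroxisomal beta-oxidation, 1 was higher in NASH than in control, the thioesterase gene Acot3 at 6.92 against 4.13 FPKM. The CoA-degrading Nudt7 was lower, at 122 against 199 FPKM. Against NASH, TH-treated NASH had 2 of the 14 higher and 3 lower, and the median log2 ratio was −0.12. Lower were Scp2, whose products include a thiolase for branched chains and bile acid precursors, at 1010.0 against 1993 FPKM, the enoyl-CoA reductase gene Pecr and the thioesterase gene Acot4. Higher were the peroxisomal thioesterase gene Acot8, at 27.5 against 15.7 FPKM, and Crat, a carnitine transferase for short chains, at 32.2 against 19.1 FPKM. Unlike Crot, Crat was thus above NASH.

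Of 11 genes of peroxisomal membrane transport and acyl-CoA entry, 2 were higher in TH-treated NASH than in NASH and 1 lower. The membrane proteins Pxmp2 and Pxmp4 were higher, 1.68-fold and 1.73-fold, near the 1.68-fold of Abcd3. In NASH against control 1 of the 11 was higher. Of 6 genes of alpha-oxidation, which prepares phytanic acid for the oxidases, Hacl1 was at 82.0, 35.8 and 69.5 FPKM across control, NASH and TH-treated NASH, and the aldehyde dehydrogenase gene Aldh3a2 at 117, 303 and 92.8 FPKM. NASH was the lowest library for Hacl1 and the highest for Aldh3a2. The hydroxylase gene Phyh, at 1344, 1260 and 812 FPKM, was lower in TH-treated NASH.

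Acox2, Hsd17b4 and Scp2 also belong to the shortening of bile acid side chains. Among the 7 genes listed for that route, which include Scp2, 1 was higher in TH-treated NASH than in NASH (Acot8) and 1 lower (Scp2), with a median of −0.02. The racemase gene Amacr, which turns branched substrates into the form Acox2 accepts, was at 64.8, 62.4 and 61.3 FPKM. The bile acid-CoA ligase gene Slc27a5 was at 346, 310 and 224 FPKM and the conjugating enzyme gene Baat at 138, 119 and 90.6 FPKM, both lower at each step, and each past 1.5-fold in TH-treated NASH against control.

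None of 18 peroxisome biogenesis genes passed 1.5-fold in NASH against control, with a median of 0.14, or in TH-treated NASH against NASH, with a median of 0.00. Between TH-treated NASH and control 4 were higher (Pex11a, Fis1, Pex6 and Pex16, by 1.72-fold to 1.51-fold) and Pex26 was 1.71-fold lower, where 15.8% and 6.98% of all genes were, with a median of 0.18. Pex5, the import receptor for most matrix enzymes, was at 45.1, 50.8 and 39.9 FPKM, and Pex7, the import receptor that thiolases use, at 34.3, 37.4 and 26.6 FPKM. Pex11a, a membrane protein of peroxisome division, was at 50.2, 73.1 and 86.4 FPKM, upward at each step like Ehhadh. Of 6 genes of peroxide handling and matrix proteolysis, catalase (Cat) and the epoxide hydrolase gene Ephx2 were lower in TH-treated NASH than in NASH. Cat was at 1035, 969 and 514 FPKM, 1.89-fold below NASH, a size close to that of Acox2. Among 5 other peroxisomal oxidases and the aminotransferase Agxt, urate oxidase (Uox), at 768 FPKM in NASH and 391 in TH-treated NASH, and the aspartate oxidase gene Ddo were lower in TH-treated NASH than in NASH, and the median was −0.52.

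**Figure D5:**
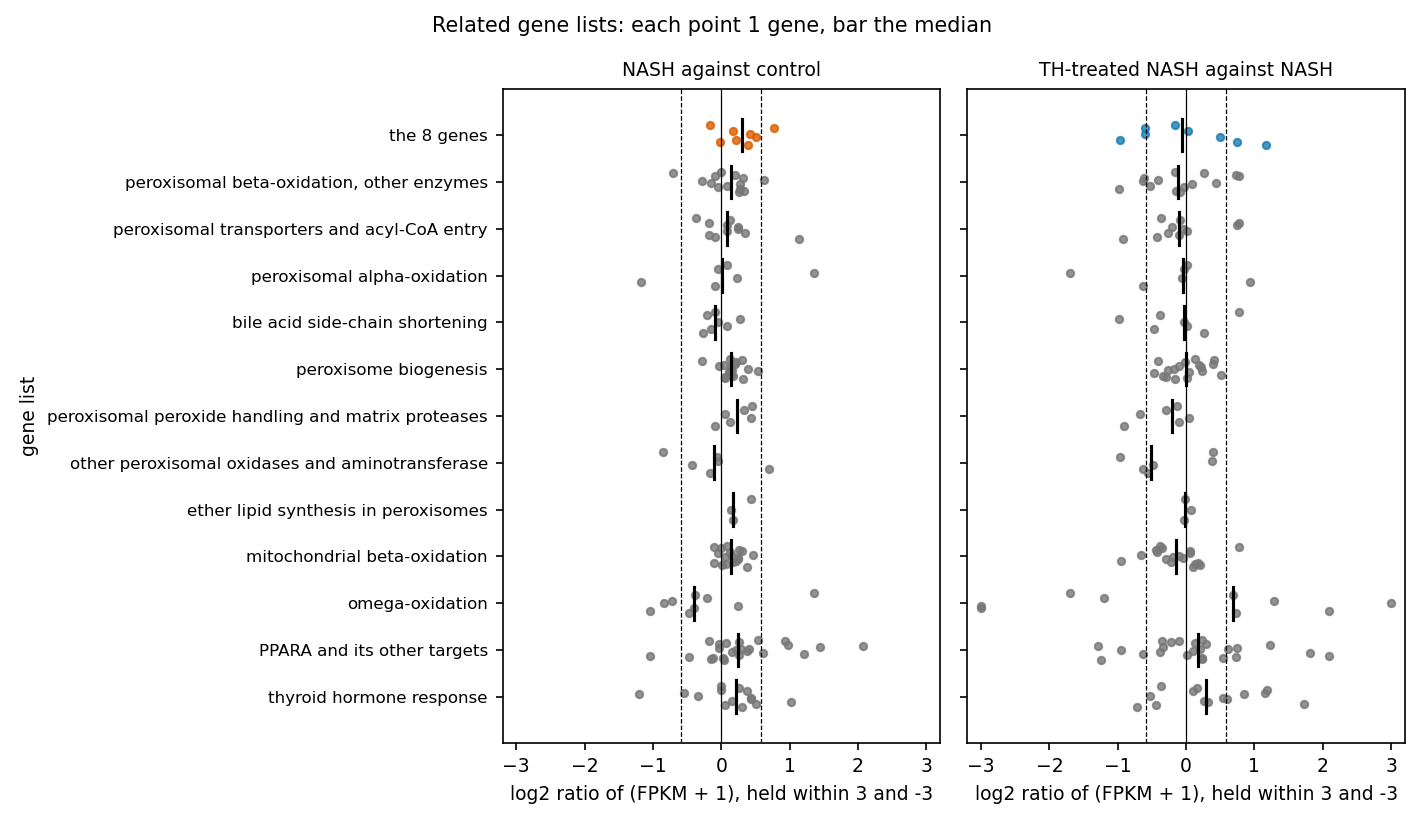
Log2 ratio of (FPKM + 1) for the 8 genes and for each related list, 1 point per gene of at least 1 FPKM in any library, with the median as a bar, 1.5-fold as dashed lines and values past 3 drawn at 3. For TH-treated NASH against NASH the 18 peroxisome biogenesis genes lie within 1.5-fold, while the omega-oxidation genes spread to both ends.

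Mitochondrial beta-oxidation offers a neighbouring pathway. None of its 18 genes passed 1.5-fold in NASH against control, where the median was 0.14. Against NASH, the electron carrier gene Etfb was higher in TH-treated NASH, at 575 against 336 FPKM, and the dehydrogenase genes Acadm and Hadh were lower, 1.95-fold and 1.58-fold, with a median of −0.15. Omega-oxidation, which makes the dicarboxylic acids that peroxisomes take in, had 5 of 9 genes higher and 4 lower in that comparison. Cyp4a14, a fatty acid hydroxylase, was at 76.6, 36.7 and 159 FPKM and Cyp4a10 at 92.5 in NASH and 154 in TH-treated NASH, whereas the male-biased Cyp4a12a and Cyp4a12b were among the lower ones. Cyp4a genes share reads with close relatives.

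The receptor gene Ppara was at 28.1, 28.9 and 11.6 FPKM across control, NASH and TH-treated NASH, 2.49-fold below NASH, while its partner receptor gene Rxra was at 111, 99.5 and 117 FPKM. Of 24 genes in the list of PPARA and its other targets, 6 were higher and 4 lower in TH-treated NASH against NASH, with a median of 0.17, and 6 were higher and 1 lower in NASH against control, with a median of 0.24. The pyruvate dehydrogenase kinase gene Pdk4 was 4.57-fold and the hormone gene Fgf21 2.47-fold above NASH, whereas the fatty acid translocase gene Cd36 was 2.51-fold below.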

How the data were processed

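Liver polyA RNA was measured by RNA-seq in 3 libraries, 1 per group. The authors deposited 1 FPKM value per gene and library, beside gene length and position; TopHat2 and HTSeq were used, per the submitters' processing notes, with versions, settings, strand mode, read length and genome build not given in the sources used here. Positions were used as the deposited table gives them.

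Multiplying FPKM by length gave whole fragments (100% of values, to within 0.01); these sum to 54576236, 47009255 and 38303410 in control, NASH and TH-treated NASH. Levels have exact Poisson intervals and ratios exact conditional binomial (Clopper-Pearson) intervals at 95%, for counting error only, since PCR copies are not independent molecules. No p-value is given with 1 library per group. Log2 ratios used a pseudocount of 1 FPKM; counts over all genes took genes reaching 1 FPKM in a library of the pair, and 1.5-fold. The steps were tested on simulated data. Python 3.11.15, numpy 2.4.6, pandas 2.3.3, scipy 1.17.1, matplotlib 3.10.9 and Biopython 1.88 were used.

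The 8 genes and the lists (228 entries, 226 found) were chosen with earlier results of these data known. All 8 members are named, list members by size among those past 1.5-fold besides those whose role is explained, and for pattern the nearest genes of at least 5 FPKM. A few genes of the lists are counted but not reported here by name, and a few of like pattern are not reported here. Protein targeting signals, planned at the outset, were not analysed here. The alternatives changed the pseudocount (0.1 or 5 FPKM), the filter (none, or 5 FPKM), the scaling (equal sum, median-of-ratios, TMM, leaving out the 50 most abundant genes, or centring on hepatocyte markers), the genes (protein-coding), the threshold (2-fold, or a lower one of 1.25-fold), or summed the thiolases. Centring by gene length and coding transcript lengths were added after seeing the data.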

Additional observations from a re-analysis of the deposited data

How the results depend on the processing

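The count of members higher in NASH than in control, 1 as reported, was 0 with median-of-ratios scaling and at 2-fold, 4 at the lower threshold and 6 after centring on hepatocyte markers. In TH-treated NASH against NASH the 2 higher members became 1 after that centring and at 2-fold, and the 3 lower became 1 with median-of-ratios scaling and 0 at 2-fold. In TH-treated NASH against control the 1 lower member became 0 after centring on hepatocyte markers and at 2-fold, and 2 at the lower threshold. Centring subtracts the hepatocyte markers' median, −0.47 in NASH against control; the cause of the other changes was not tested. The other counts of members moved by no more than 1.5 times. Over 14 alternatives the members' median ranged from 0.10 to 0.77 in NASH against control, from −0.38 to −0.01 in TH-treated NASH against NASH, and from −0.00 to 0.39 in TH-treated NASH against control, where its sign turned. Each log2 ratio of a single member under an alternative was set against the mean distance from the reported ratio to the ends of its counting interval. Of 240 such values, 133 moved by no more than that distance and 107 by more, and none past 1.5-fold turned sign. The 133 include all values under the filter settings, which cannot change the ratio of a single gene.

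Counts over all genes also depend on the setting. Those higher and lower in NASH against control, 1208 and 296, ranged from 367 to 5806 and from 81 to 756. In TH-treated NASH against NASH 996 and 1060 became 320 to 2221 and 325 to 3021, and in TH-treated NASH against control 1817 and 801 became 639 to 3666 and 278 to 1793. Abcd2, with 568 control fragments, has the widest counting interval, and animal-to-animal spread is unknown for every value. No paired analysis was possible because each group has 1 library, so no replicate can be left out either.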
